A study of Mus musculus with 6 samples.

Results

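The genes described here build peroxisomes and carry out peroxisomal oxidation and ether lipid synthesis, in brown adipose tissue of mice on an obesogenic diet with or without a BACE1 inhibitor. They were chosen by name, as 28 peroxins, oxidation enzymes, ABCD transporters and ether lipid enzymes, and all 28 were found among the 45320 Ensembl genes of the tables. C57BL/6 mice were placed at 4 weeks of age on a diet rich in calories, fat and sugar. After 4 weeks they were split. The untreated group (samples 13, 14 and 15) stayed on that diet, and the treated group (samples 17, 33 and 35) received it with RO5508887, an experimental small molecule that inhibits the protease BACE1. Both groups therefore shared strain, tissue and diet. The tables of samples 33 and 35 held the same value for all 45320 genes and were counted as 1 library, called treated 33/35, which leaves 3 untreated and 2 treated libraries. RNA came from the whole tissue, so the libraries hold every cell type of the dissected pad, and fewer cells of a type cannot be told apart from less RNA per cell. The labels name no animal for any sample. The p-values hence cover the spread between samples alone, and that may be technical.

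Peroxisomes are single-membrane organelles that shorten very long-chain and branched fatty acids, form the first intermediates of ether lipids and degrade hydrogen peroxide. Their matrix proteins are made in the cytosol and carried in by the shuttling receptors PEX5 and PEX7, which dock on the membrane, release their cargo and are pulled back out after ubiquitination. Brown fat is rich in these organelles, and PPARα, a nuclear receptor that binds fatty acids, is a known activator of many of their genes.

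None of the 28 members differed between the groups beyond the spread of the libraries. FPKM are fragments scaled to transcript length and library size. With limma over the 13527 genes whose mean reached 1 FPKM, 0 of 28 members passed a Benjamini-Hochberg adjusted p of 0.05, where 0.0444% of all tested genes did, and 0 had an unadjusted p under 0.05, where 0.924% did. All 28 had passed the filter on low values. The adjusted p was 1.00 for each member. The mean log2(FPKM + 0.5) was higher with the drug for 26 members, against 64.3% of all tested genes, and lower for Agps and Far1. With each library centred on the median of its tested genes, 17 members were higher and 11 lower, and centred on a list of adipocyte identity genes, 3 were higher and 25 lower. The median log2 fold change, treated minus untreated, was 0.19 over the members and 0.06 over all tested genes. It was 0.080 and -0.051 with centring on the median. In no member did both treated values lie above all untreated ones, as 5.5% of tested genes did, or below all of them, as 3.18% did.

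Among the members, 1 untreated library stood apart from the rest. Untreated 14 held the lowest value of the 5 libraries for 26 of 28 members, against 43.6% of all tested genes. The exceptions were Agps and Far1, both enzymes of ether lipid synthesis, and only Far1 was highest there, against 33.5% of tested genes. Set against untreated 13 and 15 alone, both treated libraries lay below them in 15 of 28 members (20.8% of genes) and above them in 0 (25.3%). In untreated 14 the members lay a median of -1.08 on the log2 scale from the mean of untreated 13 and 15, against -0.077 over all tested genes, and 16 of 28 lay lower by more than 1, against 12.1%. These are descriptions of 1 library against a pair, with no test. The summed FPKM of the members was 2857, 1311 and 2895 in untreated 13, 14 and 15 and 2389 and 2569 in treated 17 and treated 33/35. It made up 0.443%, 0.230% and 0.453% of the FPKM sum in the untreated libraries and 0.400% and 0.416% in the treated ones.

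Skeletal muscle transcripts moved with these differences. Of 43 muscle markers found, 42 reached 1 FPKM in untreated 14, treated 17 and treated 33/35, and Myh4, a fast myosin, was listed at 0 there. In untreated 13 and 15, 22 and 21 of the 43 reached 1 FPKM. Summed, the 43 genes held 9.07% of all FPKM in untreated 14, 3.44% in treated 17 and 1.46% in treated 33/35, but 0.0526% and 0.0492% in untreated 13 and 15. Their part in the members' values was not tested. Markers of brown adipocytes were present in all 5 libraries, and each of the 6 was lowest in untreated 14. Their summed FPKM was 7347, 2421 and 7136 in untreated 13, 14 and 15 and 5435 and 6331 in treated 17 and treated 33/35. Fabp4 alone made up 1509 of the sum in untreated 14. Ucp1 measured 1837, 227 and 1912 FPKM untreated and 1119 and 1321 FPKM treated. Of 5 hepatocyte markers, the 4 other than Cyp2e1 lay at or below 4.09 FPKM in all libraries. Liver is another tissue rich in peroxisomes. Cyp2e1, an enzyme also made by fat, measured 2.17 to 43.1 FPKM. The summed level of 5 mast cell markers ran from 6.72 to 21.7 FPKM in the untreated group, with 29.5 FPKM in treated 17 and 25.2 FPKM in treated 33/35, and their part was not tested either.

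**Figure D1:**
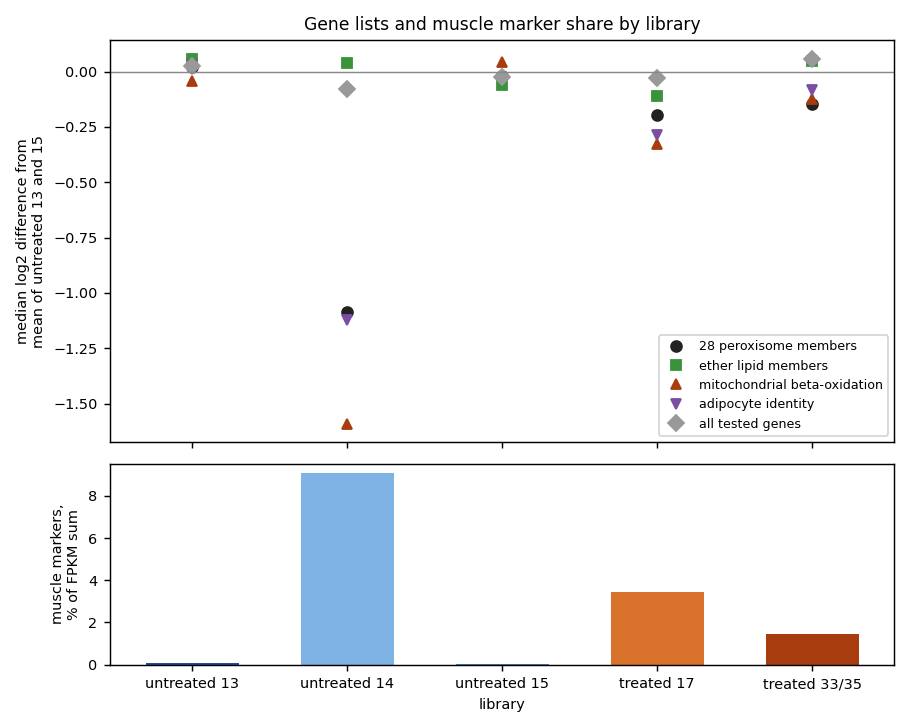
Upper panel, median log2 difference from the mean of untreated 13 and 15 for 5 gene lists in each library. Lower panel, share of the FPKM sum taken by skeletal muscle markers. In untreated 14 the 28 members sit at -1.08 and the ether lipid members at 0.039, and the marker share is 9.07%.

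Leaving out untreated 14 turned the direction of most members without bringing any past the threshold. Without it, 26 of 28 members had lower means with the drug, against 48.3% of tested genes, the median was -0.18 against 0.01 over all genes, and 0 passed (limma adjusted p from 0.253 to 0.996, where 1.18% of genes passed). Unadjusted p under 0.05 was reached by 3 members, Scp2, Hsd17b4 and Cat, and by 12.2% of all genes. The drug and the muscle transcripts, low in both untreated libraries kept there, cannot be told apart in that fit. Adding a covariate, the average log2 level of the 42 muscle genes, gave another picture: the median was 0.64 and 13 members passed as higher (10.1% of genes did), with 2 residual degrees of freedom and a smallest limma adjusted p of 0.0144. The 13 were Pex2, Pex3, Pex5, Pex6, Pex13, Acox3, Hsd17b4, Acaa1a, Acaa1b, Scp2, Abcd3, Phyh and Cat. With the summed FPKM of the same markers as the covariate, the median was 0.13 and 0 passed. The median kept its sign under both muscle covariates, with 26 and 24 of 28 members higher, and turned without untreated 14. Both covariate fits include untreated 14, the library with the most muscle transcripts. The kept sign is therefore not independent of that library.

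**Figure D2:**
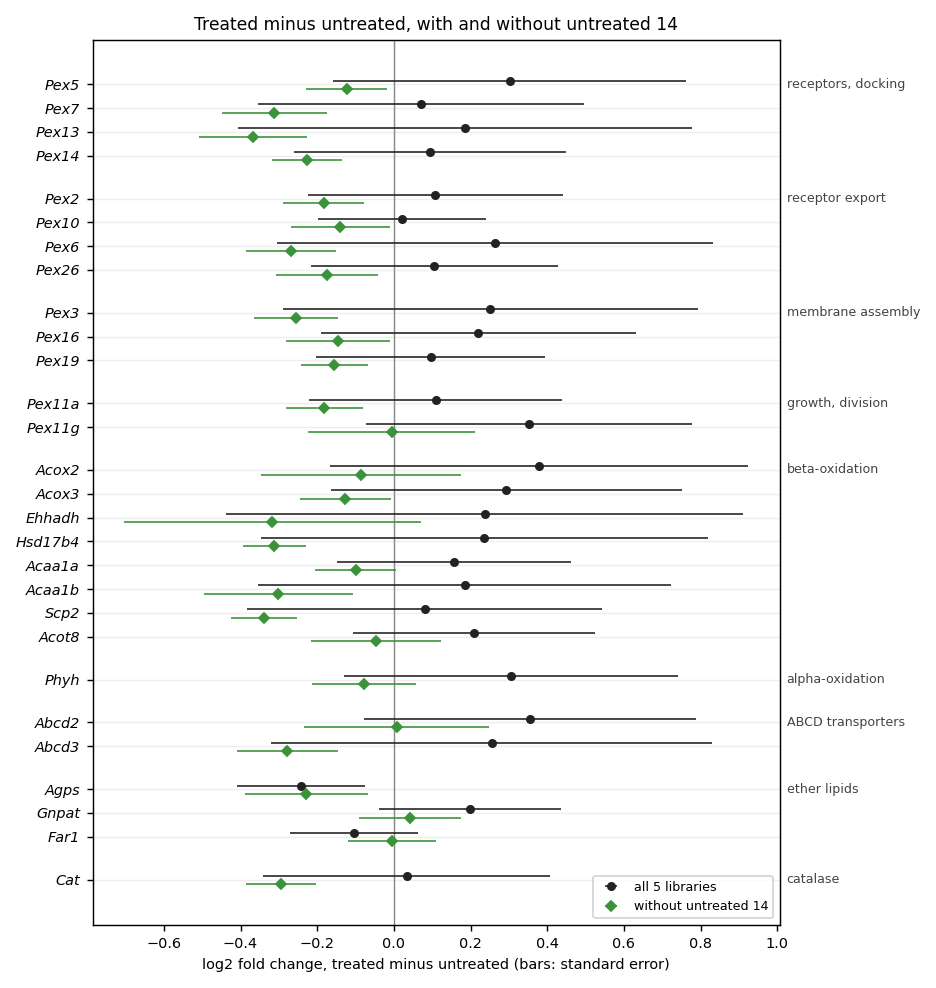
Log2 fold change, treated minus untreated, of each member with its standard error, from all 5 libraries (black) and without untreated 14 (green). 26 members are positive with all libraries and 26 are negative without untreated 14.

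The members spanned a wide range of abundance. Scp2 was the most abundant, with 281 to 688 FPKM, followed by Phyh with 200 to 485 and Cat with 176 to 356 FPKM. 7 members averaged at least 100 FPKM in the untreated group, namely these 3 with Hsd17b4, Gnpat, Abcd3 and Pex19. At the other end, Acox2, Pex26 and Pex11g stayed under 10 FPKM in every library. Untreated 13 and 15 were close to each other, within 0.2 on the log2 scale for 19 of 28 members.

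**Figure D3:**
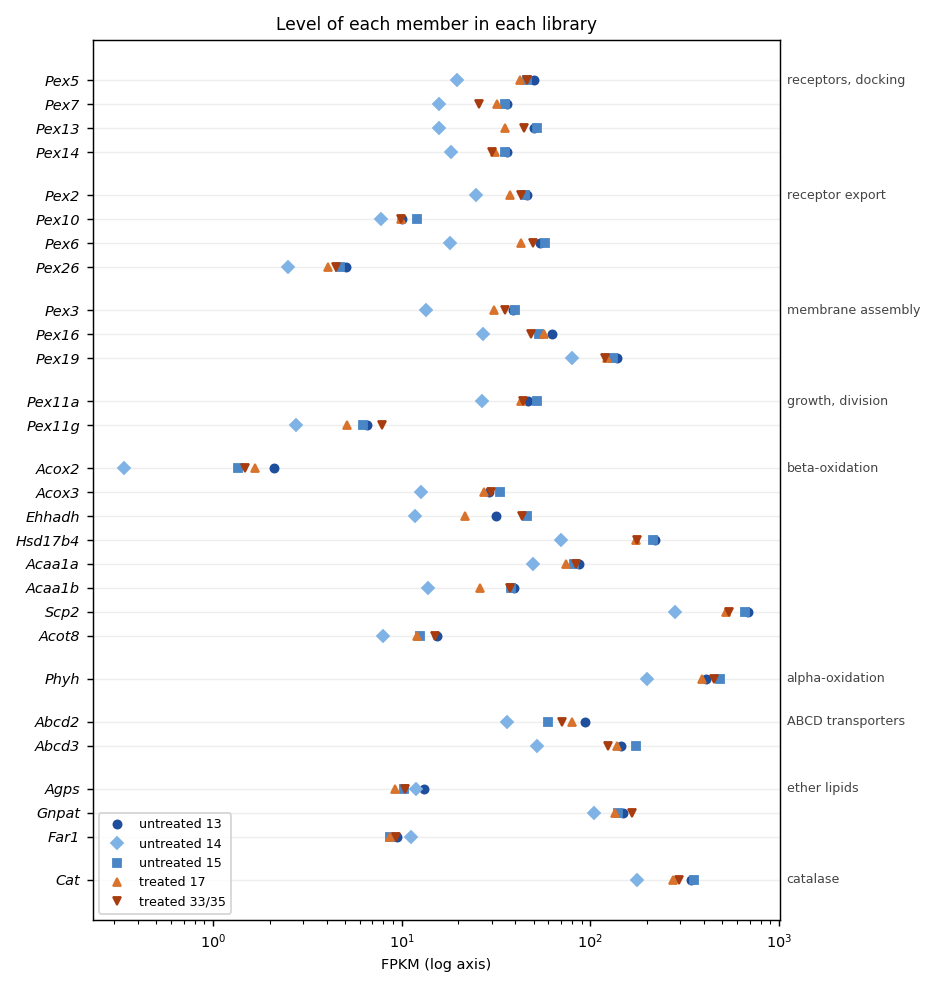
FPKM on a log axis for each member in each of the 5 libraries, ordered by role. The light blue diamond of untreated 14 is the leftmost point of 26 members, and only Agps and Far1 differ, with 11.9 and 11.2 FPKM there.

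Among the import receptors and the docking complex, untreated 14 was lowest in each of 4 genes. Pex5, the receptor for the C-terminal targeting signal (chromosome 6, 124396816 to 124415067, GRCm38), measured 50.3, 19.7 and 46.3 FPKM in untreated 13, 14 and 15, against 42.2 and 46.4 FPKM in treated 17 and treated 33/35. The treated values lay within the untreated range, at a log2 fold change of 0.30 (SE 0.46). Pex13, a docking protein of the membrane pore (chromosome 11, 23646479 to 23665959), measured 50.2, 15.8 and 52.1 FPKM untreated and 35.2 and 44.4 FPKM treated, a log2 fold change of 0.19 (SE 0.59). The treated pair sat above untreated 14 and below its 2 companions, and leaving out untreated 14 gave -0.37 (SE 0.14, adjusted p = 0.416 by limma). Pex7, the receptor for the N-terminal signal carried by thiolase, PHYH and AGPS, measured 36.0, 15.8 and 35.4 FPKM untreated and 31.9 and 25.7 FPKM treated. Pex14, the other docking protein, measured 36.4, 18.2 and 35.4 FPKM untreated and 31.1 and 30.1 FPKM treated. Pex7, Pex13 and Pex14 shared the order in which both treated libraries lie between untreated 14 and the lower of untreated 13 and 15. That order was seen in 15 of the 28 members and in 16.2% of tested genes.

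The genes that ubiquitinate and extract the receptors all showed that order. Pex2, a RING ubiquitin ligase, measured 46.1, 24.7 and 45.1 FPKM untreated and 37.7 and 42.7 FPKM treated. Pex10, its partner in the ligase complex, was less abundant and less spread, at 10.1, 7.75 and 12.0 FPKM untreated and 9.96 FPKM in both treated libraries. Pex6, an ATPase that pulls receptors out of the membrane, measured 53.9, 18.1 and 57.5 FPKM untreated and 42.6 and 49.9 FPKM treated. Its membrane anchor Pex26 was much less abundant, with 5.10, 2.51 and 4.69 FPKM untreated and 4.08 and 4.48 FPKM treated. Pex6 exceeded Pex26 by a ratio of 10.6 in untreated 13, 7.19 in untreated 14 and 12.3 in untreated 15, and by 10.4 and 11.1 in the treated libraries. The ratio was therefore lowest where both genes were lowest.

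The 3 genes that place proteins in the peroxisomal membrane were likewise lowest in untreated 14. Pex3, which receives the membrane protein chaperone, measured 38.9, 13.4 and 39.9 FPKM untreated and 30.7 and 35.2 FPKM treated. Pex16, which helps recruit PEX3, measured 62.7, 26.8 and 53.5 FPKM untreated and 56.5 and 48.4 FPKM treated, so its treated values lay on both sides of untreated 15. Pex19, the chaperone itself, was the most abundant peroxin of the members, at 139, 79.9 and 132 FPKM untreated and 123 and 120 FPKM treated. Pex11a and Pex11g act in the growth and division of peroxisomes. Pex11a, a known PPARα target, measured 46.7, 26.7 and 51.9 FPKM untreated and 43.0 and 43.8 FPKM treated. Pex11g measured 6.53, 2.77 and 6.25 FPKM untreated and 5.15 and 7.82 FPKM treated, so treated 33/35 was its highest library.

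The enzymes of the beta-oxidation spiral were lowest in untreated 14 in 8 of 8 cases. Acox3 and Acox2, oxidases for branched chains and bile acid side chains, catalyse the first step. Acox3 measured 29.0, 12.7 and 33.3 FPKM untreated and 27.2 and 29.6 FPKM treated, whereas Acox2 measured 2.12, 0.337 and 1.35 FPKM untreated and 1.68 and 1.48 FPKM treated. The next steps are carried out by 2 bifunctional enzymes. Hsd17b4, the D-bifunctional protein, measured 220, 69.5 and 216 FPKM untreated and 174 and 177 FPKM treated. Its log2 fold change was 0.24 (SE 0.58), and -0.31 (SE 0.08, adjusted p = 0.265 by limma) without untreated 14. Ehhadh, the L-bifunctional protein and a PPARα target, varied within both groups: it measured 31.6, 11.8 and 46.4 FPKM untreated and 21.6 and 43.3 FPKM treated. The treated libraries lay 0.99 apart on the log2 scale, and the log2 fold change was 0.24 (SE 0.67). It was 0.73 without treated 17 and -0.26 without treated 33/35, neither past the threshold.

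The thiolases close the spiral, and their transcripts share sequence. Acaa1a (chromosome 9, 119339676 to 119350299) measured 87.4, 49.6 and 82.3 FPKM untreated and 74.5 and 84.1 FPKM treated. Its neighbour Acaa1b (chromosome 9, 119148023 to 119157093) measured 39.2, 13.8 and 38.1 FPKM untreated and 26.1 and 37.5 FPKM treated. The ratio of Acaa1b to Acaa1a was 0.449, 0.277 and 0.463 in the untreated libraries and 0.350 and 0.446 in the treated ones, lowest in untreated 14 and next in treated 17. Of the distinct 50-base stretches in annotated Acaa1b transcripts, 30.5% also occur in those of Acaa1a, so the split of reads between the pair is uncertain. Scp2 encodes a thiolase for branched chains and, from another start, sterol carrier protein 2, which gene-level values do not separate. It measured 688, 281 and 660 FPKM untreated and 522 and 543 FPKM treated, a log2 fold change of 0.08 (SE 0.46). Without untreated 14 it was -0.34 (SE 0.09, adjusted p = 0.253 by limma), the smallest adjusted p of any member in that fit. Of the 50-base stretches of Scp2, 29.7% also occur in a pseudogene, Scp2-ps2, which was listed at 2.73 to 7.44 FPKM. Exons of 12 members, Acaa1a, Acaa1b, Acox3 and Acot8 among them, overlap exons of a gene on the opposite strand, and whether the counting used strand is not stated. Acot8, a thioesterase that ends the pathway by freeing fatty acids from CoA, measured 15.5, 7.98 and 12.5 FPKM untreated and 12.1 and 15.0 FPKM treated.

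Alpha-oxidation, the transporters and catalase followed the same low value in untreated 14. Phyh starts the alpha-oxidation of phytanic acid, whose methyl branch blocks beta-oxidation. It measured 409, 200 and 485 FPKM untreated and 392 and 454 FPKM treated, a log2 fold change of 0.31 (SE 0.44). Abcd3, a transporter of branched and long-chain substrates, measured 145, 52.2 and 174 FPKM untreated and 138 and 124 FPKM treated. Abcd2, a transporter of very long and unsaturated chains that is abundant in fat, measured 93.9, 36.0 and 59.6 FPKM untreated and 80.2 and 70.6 FPKM treated. Its untreated 13 and 15 were unlike each other, and the log2 fold change was 0.36 (SE 0.43). It became 0.01 (SE 0.24, adjusted p = 0.995 by limma) without untreated 14. Cat, catalase, the enzyme that removes hydrogen peroxide made by the oxidases, measured 343, 176 and 356 FPKM untreated and 274 and 296 FPKM treated. Its means were close, at a log2 fold change of 0.03 (SE 0.37), and -0.30 (SE 0.09, adjusted p = 0.331 by limma) without untreated 14.

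Of the 3 enzymes that start ether lipid synthesis, Far1 and Agps did not share the low value and Gnpat shared it to the smallest extent of the 26 members. Far1, which supplies the fatty alcohol, was highest in untreated 14: it measured 9.42, 11.2 and 8.65 FPKM untreated and 8.65 and 9.36 FPKM treated. Its log2 fold change was -0.10 (SE 0.17). Agps, which exchanges the acyl chain for that alcohol, measured 13.1, 11.9 and 10.2 FPKM untreated and 9.26 and 10.4 FPKM treated. Treated 17 was its lowest library and untreated 13 its highest, and the groups overlapped only by the margin between treated 33/35 and untreated 15. The log2 fold change was -0.24 (SE 0.17). It stayed between -0.33 and -0.16 when each library was left out in turn. Gnpat, which acylates dihydroxyacetone phosphate in the first step, measured 150, 105 and 141 FPKM untreated and 134 and 166 FPKM treated, and treated 33/35 was highest. Its log2 fold change was 0.20 (SE 0.24). Its transcripts overlap those of Gm16163 on the same strand, which was listed at 1.05 to 4.98 FPKM. On the opposite strand its exons overlap those of 2810004N23Rik, listed at 7.68, 29.5 and 8.26 FPKM untreated and 13.1 and 9.08 FPKM treated, highest in untreated 14. Its part in the Gnpat values was not tested. The ratio of Gnpat to Agps ran from 8.77 in untreated 14 to 16.0 in treated 33/35. The distance of untreated 14 from the mean of untreated 13 and 15 was 0.30 for Far1, 0.039 for Agps and -0.47 for Gnpat. The other 25 members ranged from -0.48 for Pex10 to -1.66 for Pex13 and Ehhadh.

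**Figure D4:**
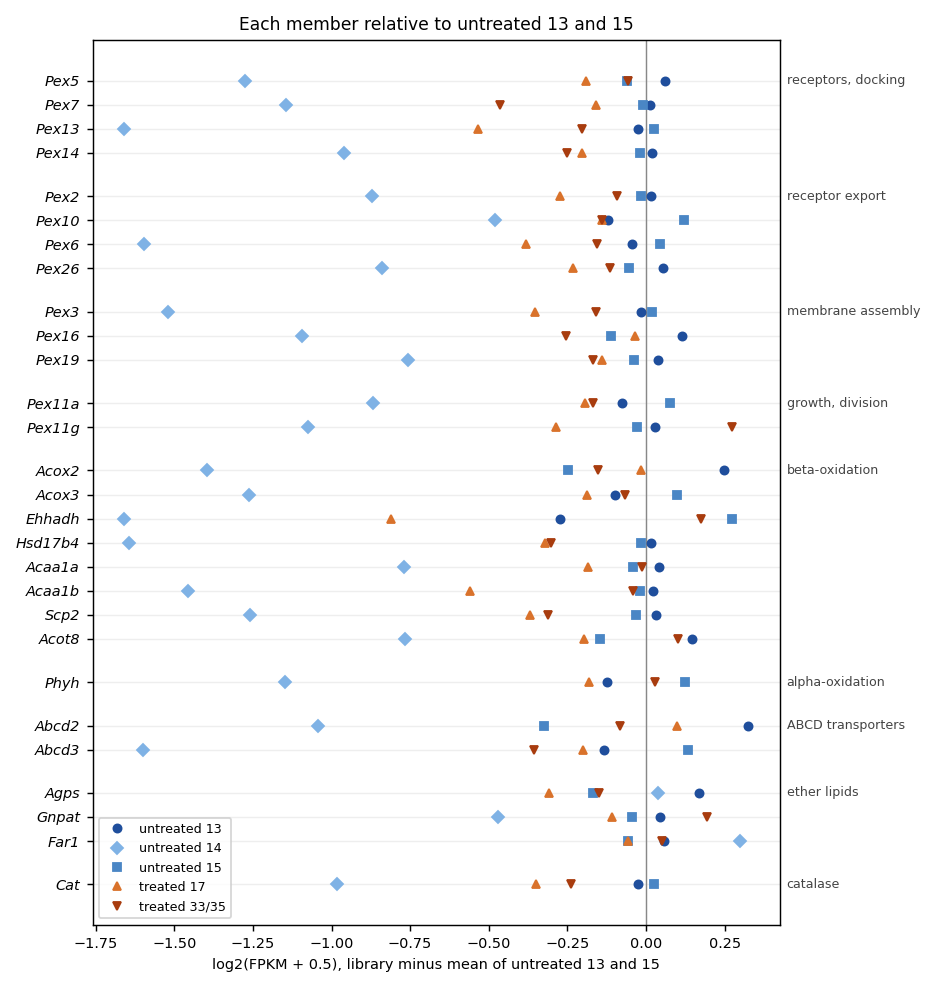
Log2(FPKM + 0.5) of each member in each library minus the mean of untreated 13 and 15, ordered by role. Untreated 14 lies between -1.66 and -0.48 for the 25 members outside the ether lipid group and at -0.47, 0.039 and 0.30 for Gnpat, Agps and Far1.

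Upstream sequences were read for members at both ends of this range. RefSeq windows on GRCm38.p6 were matched by symbol for 24 of the 28 members, in 29 windows. The 250 bases before the start site were searched on both strands for CCAAT, bound by the factor NF-Y, and for AGGTCA, the half-site of nuclear receptors such as PPARα. 11 of 24 members held CCAAT, against 37.5% of all genes with a window, and 3 (Cat, Pex11g and Scp2) held AGGTCA, against 15.8%. The paired element AGGTCANAGGTCA was in 0 members and in 0.0407% of all genes. Shown are 2 genes far below in untreated 14, Ehhadh (minus strand, chr16:21787835-21788084) and Acaa1b (minus strand, chr9:119157094-119157343), and 2 that were not, Agps (plus strand, chr2:75831927-75832176) and Far1 (plus strand, chr7:113513584-113513833). No annotated exon lies in these windows, sequences run 5′ to 3′ toward the start site, and capitals mark CCAAT or its complement ATTGG. The AGGTCA half-site is in none of the 4, and CCAAT is in each, so the letters searched do not separate these 4. The 4 do not stand for all members with a window. CCAAT was absent from the windows of Pex13, Abcd3, Pex6 and Pex3. In untreated 14 these lay at -1.66, -1.60, -1.60 and -1.52 from the mean of untreated 13 and 15. Ehhadh and Acaa1b, which hold CCAAT, lay at -1.66 and -1.46. Whether CCAAT goes with this distance over all members was not tested.
Ehhadh: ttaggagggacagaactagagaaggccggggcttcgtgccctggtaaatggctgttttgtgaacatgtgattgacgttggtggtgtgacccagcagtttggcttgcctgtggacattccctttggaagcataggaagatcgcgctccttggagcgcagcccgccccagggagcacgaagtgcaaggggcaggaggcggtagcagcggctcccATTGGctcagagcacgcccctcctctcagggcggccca
Acaa1b: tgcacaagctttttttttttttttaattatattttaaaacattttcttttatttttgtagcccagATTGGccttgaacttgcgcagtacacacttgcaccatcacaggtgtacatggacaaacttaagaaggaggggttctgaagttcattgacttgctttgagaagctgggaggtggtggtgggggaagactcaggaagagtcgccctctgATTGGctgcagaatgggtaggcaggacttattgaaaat
Agps: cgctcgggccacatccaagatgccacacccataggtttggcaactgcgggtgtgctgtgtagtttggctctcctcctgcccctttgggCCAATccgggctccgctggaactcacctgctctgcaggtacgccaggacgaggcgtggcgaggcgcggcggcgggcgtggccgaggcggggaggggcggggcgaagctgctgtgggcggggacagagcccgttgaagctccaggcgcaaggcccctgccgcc
Far1: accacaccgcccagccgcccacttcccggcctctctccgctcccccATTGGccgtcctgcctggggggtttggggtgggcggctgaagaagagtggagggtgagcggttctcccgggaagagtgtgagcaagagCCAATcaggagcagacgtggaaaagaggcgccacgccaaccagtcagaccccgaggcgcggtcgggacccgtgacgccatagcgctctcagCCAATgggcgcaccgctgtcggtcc

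In a wider list of other peroxisome genes no gene passed the test either. Of 63 genes found, 51 passed the filter. With the drug 45 had higher means, against 64.3% of all tested genes, and 6 lower. Limma's adjusted threshold was passed by 0, where 0.0444% of all tested genes passed. An unadjusted p under 0.05 was reached by 0, against 0.924%. Their median log2 fold change was 0.19, and 43 of the 51 were lowest in untreated 14, against 43.6% of all tested genes. Without untreated 14, 12 had higher means and 38 had lower means, where 48.3% of all tested genes were lower. The median was then -0.15, and 8 had an unadjusted p under 0.05, against 12.2% of all tested genes. Abcd4, a relative of Abcd2 and Abcd3 that works in lysosomes, measured 12.5, 5.19 and 12.9 FPKM untreated and 9.76 and 13.1 FPKM treated. Pex5l, a neuronal relative of Pex5, measured 0.173 to 0.388 FPKM, below the filter.

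Among the 51 tested genes of that list the groups did not overlap in 2, and neither passed the test. Both treated values lay above all untreated ones in 1 of 51 (1.96%, against 5.5% of all tested genes) and below them in 1 of 51 (1.96%, against 3.18%). Usp30, a deubiquitinase of mitochondria and peroxisomes, measured 6.54, 4.44 and 6.16 FPKM untreated and 6.55 and 7.12 FPKM treated, a log2 fold change of 0.26 (SE 0.21). Dnm1l, the dynamin that divides both organelles, measured 34.1, 34.9 and 33.5 FPKM untreated and 32.7 and 32.2 FPKM treated, a log2 fold change of -0.07 (SE 0.14). The gap in Dnm1l is small beside its level, and in Usp30 treated 17 exceeded untreated 13 by less than the spread of the untreated group.

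Of the regulators, Ppara and Pparg were farther below in untreated 14 than any member. Ppara measured 106, 18.7 and 112 FPKM untreated and 80.5 and 106 FPKM treated, and Pparg, the adipocyte nuclear receptor, 197, 33.5 and 160 FPKM untreated and 125 and 157 FPKM treated. Rxra, the partner of both receptors, ran the other way, at 20.7, 35.0 and 18.8 FPKM untreated and 23.7 and 23.8 FPKM treated. Prdm16, a brown fat determination factor, measured 8.34, 3.39 and 11.2 FPKM untreated and 5.72 and 6.91 FPKM treated. Ppargc1a, a coactivator of these receptors, was lower in both treated libraries (13.1 and 12.7 FPKM) than in the untreated ones (19.9, 15.0 and 16.0 FPKM), and did not pass the test (limma adjusted p = 1.00). Of the 5 regulators it alone had both treated values below all untreated ones, as 3.18% of all tested genes did.

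The members were set beside the enzymes of mitochondrial beta-oxidation, which break down the chains that peroxisomes shorten. In untreated 14 the median of the 24 mitochondrial genes was -1.59 from the mean of untreated 13 and 15, against -1.08 for the 28 members and -1.12 for 24 adipocyte identity genes. In treated 17 the medians were -0.33, -0.20 and -0.29 in the same order, and in treated 33/35 they were -0.12, -0.14 and -0.085. These are medians of single libraries, and differences between the lists were not tested. With the drug, 22 of the 24 mitochondrial genes had higher means, against 64.3% of all tested genes. Limma's threshold was passed by 0 of them, against 0.0444%. Without untreated 14, all 24 had lower means, against 48.3% of all tested genes. Their median log2 fold change was then -0.22 in place of 0.28.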

How the data were processed

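Libraries of total RNA, isolated by Trizol from brown adipose tissue, were prepared by an Illumina protocol, per the labels. The authors deposited 1 table per sample with FPKM for 45320 Ensembl identifiers, per the file headers. The submitters' processing notes list CASAVA 1.7 and the build GRCm38. The aligner, quantifier, strand setting and gene models are not given in the sources used here. GENCODE M21 (GRCm38) supplied symbols and positions for 44395 identifiers. FPKM are not counts, so depth was unknown, no counting interval was given, and a 0 can be a failed estimate. Between 20876 and 21726 genes per library were above 0.

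Log2(FPKM + 0.5) values of genes whose mean reached 1 FPKM were fitted with limma 3.58.1 (R 4.3.3) over the 5 libraries, with a variance trend, two-sided, and Benjamini-Hochberg adjustment over all tested genes (residual df 3). Fold changes on this scale understate the change of low genes. The test was tested on simulated data. Tables and plots used Python 3.11.15 with pandas 2.3.3 and matplotlib 3.10.9.

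Members and lists were chosen with earlier results of these data known. All members were named by role. Of the other peroxisome genes, a fixed set of paralogs and partners (some are not reported here) and those past the threshold or, in each direction, the 3 of smallest p without overlap were named, with 5 regulators. Acsl1 stands in 2 lists and Pparg in 3. The 13 genes given a fold change, Slc25a17, the sequences shown and the genes sharing sequence were picked after their values were seen. Protein sequences named in the design were not analysed here. Alternatives covered pseudocount, filter, scaling, variance model, weights, muscle covariates, the identical tables and each library left out. Mpv17 and Acta1 were not analysed here.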

Additional observations from a re-analysis of the deposited data

How the results depend on the processing

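Of 18 alternatives, 17 called 0 members. The covariate of the mean log2 muscle markers called 13 members and 26 other peroxisome genes, all as higher, against 10.1% of all tested genes. The count of all genes past the threshold, 6 with all libraries, was 2 with a pseudocount of 0.1, 0 with no filter, 1 with a minimum mean of 5 FPKM, 10 with array weights, 1793 with the mean log2 muscle covariate and 285 with the summed FPKM covariate, and 0 to 158 with a library left out, the 158 without untreated 14. The members' median of 0.19 was 0.080 when centred on the median of tested genes, turned to -0.16 both when centred on the adipocyte identity list and with array weights, and ranged from -0.18 (without untreated 14) to 0.39 (without untreated 13) with a library left out. It exceeded the all-gene median in 16 of 18 alternatives, and was below it with array weights and without untreated 14. Centring on the tested genes or on the adipocyte list, or dropping the variance trend, cannot change the difference between these medians. Those alternatives are among the 16 by construction. Centring on the adipocyte list moved the median of all genes to -0.29. The cause of these turns was not tested.

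For the 13 genes given a fold change above, 149 of 169 values from alternatives that keep all libraries kept their sign. Changing the filter or dropping the variance trend cannot alter a gene's fold change. The values from those alternatives kept their sign by construction, so the count overstates how stable the signs are. Centring on the adipocyte list gave -0.048 for Pex5, -0.16 for Pex13, -0.11 for Ehhadh, -0.11 for Hsd17b4, -0.27 for Scp2, -0.044 for Phyh, -0.32 for Cat, -0.15 for Gnpat and -0.094 for Usp30. Array weights gave -0.11 for Pex5, -0.32 for Pex13, -0.19 for Ehhadh, -0.28 for Hsd17b4, -0.32 for Scp2, -0.012 for Phyh, -0.26 for Cat and -0.073 for Abcd2. Centring on the median of tested genes gave -0.079 for Cat and -0.032 for Scp2, and the summed FPKM covariate -0.017 for Cat. With a library left out, the ranges were -0.12 to 0.54 for Pex5, -0.37 to 0.48 for Pex13, -0.32 to 0.73 for Ehhadh, -0.31 to 0.52 for Hsd17b4, -0.34 to 0.31 for Scp2, -0.078 to 0.56 for Phyh and -0.30 to 0.21 for Cat, which gave -0.023 without treated 33/35. A lone treated library is assumed to vary like the untreated group. Agps, Far1 and Dnm1l were below 0 and Gnpat, Abcd2 and Usp30 above 0 with each library left out. No paired analysis was possible because the groups share no replicate number. Depth was unknown, so low members such as Acox2 carry an unknown counting error.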

Other observations

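Outside the members, 7 of the 51 other peroxisome genes tested were highest in untreated 14, against 33.5% of all tested genes, and they are named here after their values were seen. Pxmp2, a channel protein of the peroxisomal membrane, measured 19.1, 39.7 and 16.4 FPKM in untreated 13, 14 and 15, then 31.0 and 23.1 FPKM in treated 17 and treated 33/35, the order of the muscle markers. Phyhd1, a relative of PHYH, measured 12.4, 21.6 and 10.2 FPKM untreated and 14.0 and 14.3 FPKM treated. Fis1, a receptor of organelle division, measured 75.0, 101 and 67.2 FPKM untreated and 79.1 and 63.1 FPKM treated. Gdap1, a membrane protein of mitochondria and peroxisomes known from nerve, measured 0.0107 and 4.18 FPKM in untreated 13 and 14, was listed at 0 in untreated 15, and measured 1.46 and 0.520 FPKM in the treated libraries. Acot6 and Dnm1l were also among them.

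The widest differences in the other direction were in a synthetase and a carrier. Slc27a2, an acyl-CoA synthetase for very long chains, measured 57.4, 6.06 and 90.9 FPKM untreated and 49.0 and 78.1 FPKM treated, and Slc25a17, a carrier of CoA and other cofactors into peroxisomes, 85.8, 14.6 and 75.6 FPKM untreated and 55.0 and 59.0 FPKM treated. Their distances from the mean of untreated 13 and 15 in untreated 14 were -3.47 and -2.42 on the log2 scale, where the members ended at -1.66. Both treated libraries of Slc25a17 lay below untreated 13 and 15, as in 20.8% of all tested genes. Its log2 fold change was 0.31 (SE 0.84) with all libraries and -0.50 without untreated 14 (adjusted p = 0.197 by limma). Neither passed the threshold.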
